A study of Mus musculus with 6 samples.

Results

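The genes described here were serum response factor (Srf), its coactivators Mrtfa and Mrtfb, and 7 genes of the contractile apparatus, namely Acta2, Actg2, Tagln, Cnn1, Myl9, Tpm1 and Tpm2. These 10 genes were taken by name from a table of 56953 mouse genes by matching each Ensembl identifier to the GENCODE annotation, and all 10 were found. They were measured by RNA sequencing in mouse embryonic fibroblasts (MEFs), connective tissue cells grown from mouse embryos, in 3 libraries labelled WT and 3 labelled GαqKO. All the cells were grown without further treatment in DMEM with fetal bovine serum and antibiotics. The study describes the GαqKO cells as lacking Gαq/11, the G protein subunits that carry signals from many receptors to phospholipase C. Whether a line came from a single embryo or clone, and whether WT and GαqKO cells were littermates, is not given in the sources used here, so genotype and other differences between the lines cannot be told apart. The comparison asks how the RNA of this transcription circuit and of its contractile products stood in cells labelled GαqKO against WT.

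SRF is a DNA-binding protein that sits on a short sequence known as the CArG box and needs a partner to choose its targets. The myocardin-related factors MRTF-A and MRTF-B bind monomeric actin in the cytoplasm, and when actin is drawn into filaments they are released, enter the nucleus and join SRF on genes of the cytoskeleton. In fibroblasts this circuit is known for the stress fibre program of the myofibroblast, the contractile fibroblast of wounds, fibrosis and tumour stroma, whose usual marker is α-smooth muscle actin.

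Of the 10 genes, 4 were lower in the libraries labelled GαqKO, 1 was higher, 3 did not pass the test and 2 were too low to be tested. Acta2, Tagln, Tpm1 and Tpm2 fell, by 1.41-fold to 5.79-fold. Mrtfa rose 1.26-fold. Srf, Mrtfb and Myl9 were not called, and Actg2 and Cnn1 stayed under 10 normalized counts. A gene was tested if 3 or more libraries held at least 10 normalized counts, which Tagln met in WT only. The test was limma on log2(normalized count + 1) over 14096 genes, and a gene was called at an adjusted p (Benjamini-Hochberg) under 0.05. At that threshold 65.8% of all genes tested were called, 34.1% lower and 31.8% higher, so a single call in this contrast was a common event. Acta2, Tagln and Tpm1 also had a log2 fold change under -1, which 10.5% of all genes tested did as lower genes, and none of the 10 was past a log2 fold change of 1 upward, which 10.2% were. In 7 of the 10 genes, all among the 8 tested, the values of both groups did not overlap, against 69.6% of all genes tested. The median log2 fold change of the 8 genes tested was -0.38, beside -0.01 over all genes tested.

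**Figure D1:**
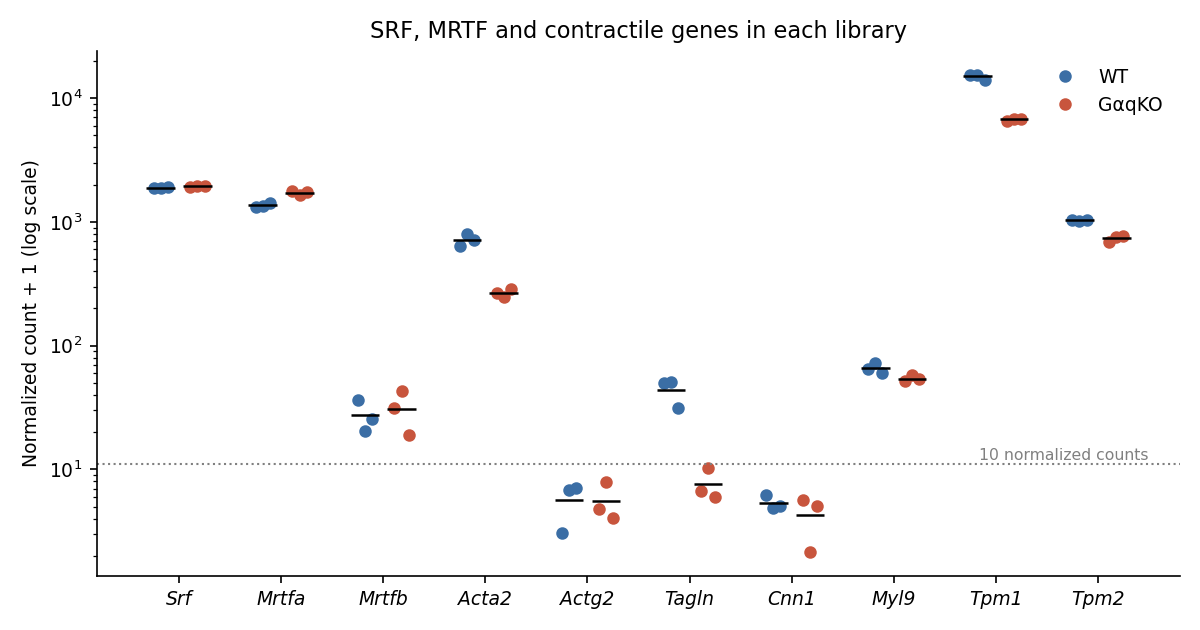
Normalized count + 1 on a log axis for each of the 10 genes, with 1 point per library (3 WT, 3 GαqKO) and a bar at the group mean. Acta2, Tagln, Tpm1 and Tpm2 sit lower in every GαqKO library than in any WT library, Mrtfa sits higher, and Actg2 and Cnn1 lie under the dotted line at 10 normalized counts.

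The deposited values were normalized counts, which are reads per gene divided by 1 size factor per library, and they summed to between 11392429 and 11483486 per library. The reads recovered from them ran from 9853000 to 12229175 per library. Gnaq, the gene of Gαq, was not lower in the libraries labelled GαqKO, which had 1926 ± 36.0 normalized counts, against 1691 ± 48.5 in WT (n = 3 per group, SD). A count over the whole gene does not show whether an exon is missing, so this value does not check the label. Gna11, the gene of Gα11, went from 2148 ± 29.0 to 452 ± 28.7 (n = 3 per group, SD). The Y-linked gene Ddx3y had 1197 ± 52.3 normalized counts in WT and was listed at 0 in every library labelled GαqKO, so the lines also differ in a way that the genotype label does not name. Fibroblast markers summed to 84406 to 90167 in WT and 62921 to 66196 in GαqKO, and of the 10 markers 5 were higher and 5 lower. The sum hides wide differences between markers. Pdgfra went from 19.6 ± 2.23 to 2320 ± 42.0 normalized counts, Dcn from 32.1 ± 3.00 to 1663 ± 53.8 and S100a4 from 170 ± 24.3 to 518 ± 34.7 (SD, n = 3 each). Thy1 was at 2.09, 0 and 0 in WT, under the floor of 3 counts, against 59.2, 59.0 and 76.5 in GαqKO. Pdgfrb was higher by a log2 fold change of 0.23. In the other direction, Col1a1 went from 16671 ± 1168 to 5774 ± 272 normalized counts (SD, n = 3 each). Fn1, Col1a2, Vim and Col3a1 had log2 fold changes of -0.73, -0.36, -0.32 and -0.18. Of 7 smooth muscle markers, 3 were tested and limma called 0 (0 at an unadjusted p under 0.05, and 0 by edgeR or DESeq2), with sums of 862 to 959 and 954 to 1004. These sums were almost all Smtn (877 ± 53.1 in WT and 942 ± 29.1 in GαqKO, SD, n = 3 each), and the other smooth muscle markers were low. The list also holds Cnn1 and Actg2, which are among the 10 genes, so it is no separate check of smooth muscle content. The pericyte sum (671 to 792 against 14.1 to 20.1) was almost all Mcam, the 1 of 5 markers tested, and the sum of skeletal and cardiac muscle markers (725 to 800 against 6.94 to 12.1, with Myog and Myh6 listed at 0) was almost all Tnnt2, the 1 of 7 tested. Both genes were lower in GαqKO and met the filter through WT only, and the other markers of these lists were near the floor, with Rgs5 at 2.32 and 4.38 normalized counts and Abcc9 at 1.04 and 3.25 (means of WT and GαqKO). Of 6 epithelial markers (515 to 541 against 10.1 to 23.1), 2 were tested, also through WT only, and both were lower. Krt14 went from 258 ± 3.97 to 1.11 ± 1.16 normalized counts and Cdh1 from 238 ± 3.06 to 7.96 ± 2.72 (SD, n = 3 each). Krt8 and Krt18 did not meet the filter, but DESeq2 called both lower on 6 libraries (adjusted p = 5.91e-04 and 0.00143) and on 5, as did edgeR on 5. Epcam (3.05 and 4.64) and Krt5 (0.324 and 0) were near or under the floor (means of WT and GαqKO). Endothelial sums (12.6 to 22.4 against 15 to 25.4, with 1 of 4 tested and not called) and leukocyte sums (88.8 to 103.9 against 59.2 to 87.9, with Itgam listed at 0) were small. Cd68, the 1 of 4 leukocyte markers tested, was called lower by limma and by edgeR (edgeR adjusted p = 0.0192 on 6 libraries and 0.0481 on 5). DESeq2 did not call Cd68 (adjusted p = 0.107 on 6 libraries and 0.212 on 5). The part of these marker differences in the results on contractile genes was not tested.

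The CArG box is a stretch of 10 bases made of CC, then 6 bases that are each A or T, then GG. The box reads as itself on both strands, and no other motif was searched. The 250 bases before each RefSeq start of transcription (build GRCm38.p6, not the GRCm39 of the gene positions given further on) were searched, and 8 of the 10 genes had an entry, all but Actg2 and Tagln. A full CArG box stood before Srf and Myl9. A box with 1 C or G inside the A and T stretch, as in the well-studied boxes of Acta2, stood before Acta2, Mrtfa and again before Myl9. The promoters of Cnn1, Mrtfb, Tpm1 and Tpm2 held neither form in this window. The 4 windows that hold a box are printed 5′ to 3′ on the strand of the gene, ending at the base before the start, with the boxes in capitals. They lie at chr17:46556163-46556412 (minus strand) for Srf, chr2:156775214-156775463 (plus strand) for Myl9, chr19:34255374-34255623 (minus strand) for Acta2 and chr15:81190737-81190986 (minus strand) for Mrtfa.
Srf: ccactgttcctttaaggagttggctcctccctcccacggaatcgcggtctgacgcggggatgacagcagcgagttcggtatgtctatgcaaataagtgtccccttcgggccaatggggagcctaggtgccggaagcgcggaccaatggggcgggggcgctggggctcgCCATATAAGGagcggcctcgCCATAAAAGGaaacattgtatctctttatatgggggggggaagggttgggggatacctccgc
Myl9: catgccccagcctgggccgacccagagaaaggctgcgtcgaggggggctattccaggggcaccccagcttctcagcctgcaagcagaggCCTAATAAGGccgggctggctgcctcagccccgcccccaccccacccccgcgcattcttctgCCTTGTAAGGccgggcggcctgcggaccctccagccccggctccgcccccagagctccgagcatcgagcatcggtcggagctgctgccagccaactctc
Acta2: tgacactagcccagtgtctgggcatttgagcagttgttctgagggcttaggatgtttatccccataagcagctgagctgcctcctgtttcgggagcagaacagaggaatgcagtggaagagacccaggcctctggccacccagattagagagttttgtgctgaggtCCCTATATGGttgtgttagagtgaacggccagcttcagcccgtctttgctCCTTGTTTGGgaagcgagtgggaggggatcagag
Mrtfa: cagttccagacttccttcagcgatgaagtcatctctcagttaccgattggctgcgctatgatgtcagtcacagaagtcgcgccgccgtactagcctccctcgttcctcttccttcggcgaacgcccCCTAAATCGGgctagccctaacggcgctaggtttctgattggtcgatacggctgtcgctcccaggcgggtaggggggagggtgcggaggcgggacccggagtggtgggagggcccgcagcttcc
The 2 boxes of Srf ran from 82 to 73 and from 62 to 53 bases before the start. In Myl9 the full box ran from 161 to 152 bases before the start and the box with 1 G from 99 to 90. In Acta2 the boxes ran from 84 to 75, with 1 C, and from 34 to 25, with 1 G. In Mrtfa the box with 1 C ran from 124 to 115 bases before the start, and the window of another listed start of Mrtfa held no box.

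Full boxes stood in 439 of 27025 genes with a promoter entry (1.62%), and either form in 2643 (9.78%). Among the 8 contractile and SRF genes with an entry, 2 held a full box (25%) and 4 held either form (50%). Among 22 other genes known as targets of MRTF and SRF, most of them cytoskeletal, 8 held a full box (36.4%). Both lists were chosen as genes of this circuit or its known targets, so their higher shares may follow from that choice and are no test. The 22 are those with a promoter entry and not the 22 tested further on. They include Acta1, Actc1 and Filip1l, which held a full box but were not tested. Of the 4 genes of the 10 that fell, only Acta2 had a box in this window, Tpm1 and Tpm2 had none, and Tagln had no entry. Over all genes tested with an entry, 138 had a full box, of which 59 were lower (42.8%) and 36 higher (26.1%), with a median log2 fold change of -0.14. Of the 9656 without one, 3570 were lower (37.0%) and 3023 higher (31.3%), with a median of -0.04. A match of letters is a description of the sequence and does not show that SRF was bound.

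**Figure D2:**
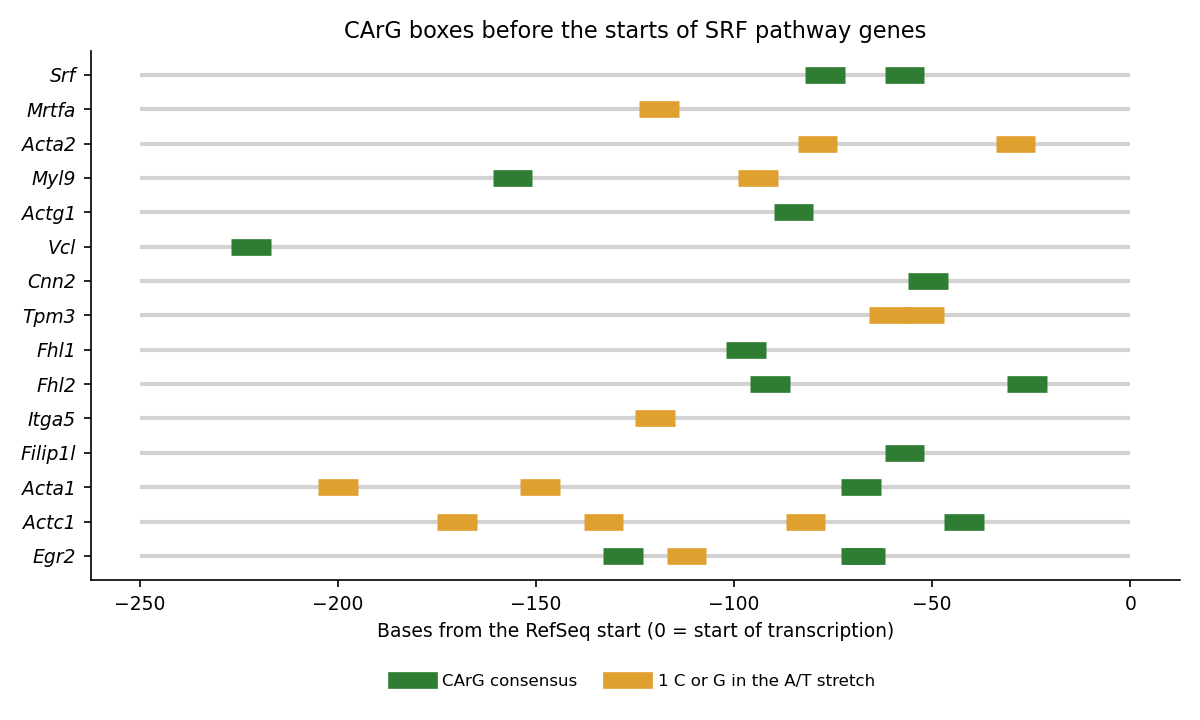
Position of CArG boxes in the 250 bases before the RefSeq start for the 15 genes of the SRF lists that hold at least 1, with the full box in green and the box with 1 C or G in the A and T stretch in orange. Srf holds its 2 full boxes within 82 bases of the start and Acta2 holds 2 orange boxes. For genes with several starts, the distance is from each start.

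Srf itself (ENSMUSG00000015605.7, chromosome 17, 46857767 to 46867119 of GRCm39, minus strand) had 1891, 1872 and 1923 normalized counts in WT libraries 1 to 3 and 1927, 1937 and 1934 in the GαqKO libraries. Every GαqKO value stood above every WT value, but by a small margin. The means were 1895 ± 25.7 and 1932 ± 5.01 (n = 3 per group, SD). The log2 fold change was 0.03 with a standard error of 0.042 and a 95% interval from -0.06 to 0.12 (limma adjusted p = 0.575). The interval leaves room for only small differences in the RNA of the transcription factor, whose own promoter carries the pair of full CArG boxes shown above.

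Mrtfa (ENSMUSG00000042292.19, chromosome 15, 80896482 to 81074969, minus strand), the gene of the coactivator MRTF-A, had 1329, 1352 and 1409.7 normalized counts in WT and 1779, 1638 and 1751 in GαqKO. Every library labelled GαqKO was above every WT library. The mean rose from 1364 ± 41.5 to 1723 ± 74.3 (n = 3 per group, SD), and the log2 fold change was 0.34 with a standard error of 0.050 (limma adjusted p = 4.21e-05). The genes tested on chromosome 15 had a median log2 fold change of 0.16, and its part in the rise was not tested. Mrtfb (ENSMUSG00000009569.15, chromosome 16, 13073858 to 13235394, plus strand), the gene of the related MRTF-B, was low and scattered, with 35.5, 19.4 and 24.4 normalized counts in WT and 30.05, 41.6 and 18.1 in GαqKO. The groups overlapped, and the log2 fold change of 0.14 had a 95% interval from -0.57 to 0.85 (limma adjusted p = 0.727), so at this depth a change of moderate size in either direction could not have been seen.

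Per kilobase of exon, Mrtfa made up 98.9% ± 0.242 of the myocardin family in WT and 99.2% ± 0.328 in GαqKO (SD, n = 3 each, exact permutation test, two-sided, p = 0.3). Mrtfb made up 0.852% ± 0.280 and 0.770% ± 0.329 (exact permutation test, two-sided, p = 0.7). Myocd, the gene of myocardin, the member found in heart and smooth muscle, had 2.09, 2.91 and 5.09 normalized counts in WT and 0.939, 0 and 0 in GαqKO and was not tested. In both groups almost all family RNA was that of MRTF-A.

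Around this core, the other partners of SRF and an inhibitor of MRTF were compared from a list of 5 genes. Of these, 4 were tested, 1 was higher and 1 lower, beside 31.8% higher and 34.1% lower over all genes tested. Scai, the gene of a protein that binds MRTF-A in the nucleus and represses it, had 609, 542 and 657 normalized counts in WT and 1055, 918 and 964 in GαqKO. All GαqKO values were above all WT values, and Scai rose by 0.70 ± 0.076 on the log2 scale (standard error, limma adjusted p = 2.06e-06). Elk1, whose protein joins SRF on growth-factor genes in place of MRTF, had a log2 fold change of -0.17. Elk1 passed by limma (adjusted p = 0.0211) and by edgeR on the recovered reads of all 6 libraries (adjusted p = 0.0277). It did not pass by DESeq2 on those of all 6 (adjusted p = 0.0926), nor by edgeR or DESeq2 on those of 5 (adjusted p = 0.0711 and 0.210). The related Elk3 and Elk4 had log2 fold changes of -0.08 and 0.09 and did not pass (limma adjusted p = 0.310 and 0.719).

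Acta2 (ENSMUSG00000035783.10, chromosome 19, 34217737 to 34232990, minus strand) encodes α-smooth muscle actin. It had 633, 792 and 719.6 normalized counts in WT and 267, 247 and 285 in GαqKO. Every WT library was far above every GαqKO library. The mean fell from 715 ± 79.6 to 266 ± 18.8 (n = 3 per group, SD). Acta2 was 2.67-fold lower, and the log2 fold change was -1.42 with a standard error of 0.089 (limma adjusted p = 7.90e-09). In bulk RNA, fewer cells with the transcript and less transcript per cell cannot be told apart.

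Actg2 (ENSMUSG00000059430.15, chromosome 6, 83489887 to 83513551, minus strand), the smooth muscle γ-actin gene, lay near the floor of 3 counts, with 2.09, 5.83 and 6.11 normalized counts in WT and 3.76, 6.94 and 3.02 in GαqKO. The groups overlapped and no test was made. Among the other actins, cytoplasmic β-actin (Actb) dominated at 40586 ± 1078 and 42459 ± 1308 normalized counts (n = 3 per group, SD) and was not called, with a log2 fold change of 0.06 (limma adjusted p = 0.211). Cytoplasmic γ-actin (Actg1) fell by 0.79 on the log2 scale (limma adjusted p = 2.01e-07). Actg1 is uncertain because 83.5% of the stretches of 150 bases within its exons had another place in the genome with at most 3 mismatches, against 0% for Acta2. The skeletal muscle actin Acta1 had 2.40 ± 2.13 and 4.83 ± 2.12 normalized counts, and the cardiac actin Actc1 was listed at 0 in all 6 libraries.

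Set against the whole actin family per kilobase of exon, Acta2 made up 1.33%, 1.74% and 1.57% of actin RNA in the WT libraries and 0.580%, 0.507% and 0.593% in the GαqKO libraries. The shares did not overlap. The mean went from 1.55% ± 0.206 to 0.560% ± 0.0461 (SD, n = 3 each, exact permutation test, two-sided, p = 0.1, the smallest that 3 against 3 allows). In all, 7 such shares were tested, and the Benjamini-Hochberg value was 0.14 for each of the 5 at the smallest p. Smooth muscle actin was a minor actin in both groups. The actin total includes the uncertain counts of Actg1.

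Tropomyosins are coiled rods that lie along actin filaments and set which myosins and severing proteins can reach them. Tpm1 (ENSMUSG00000032366.16, chromosome 9, 66929870 to 66956953, minus strand) was the most abundant of the 10 genes, with 15466, 15511 and 14042 normalized counts in WT and 6545, 6824 and 6832 in GαqKO. All GαqKO values were below all WT values, with a wide gap between them. The mean fell from 15006 ± 835 to 6734 ± 163 (n = 3 per group, SD), which was 2.23-fold lower. The log2 fold change was -1.15 with a standard error of 0.046 (limma adjusted p = 7.35e-11).

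Tpm2 (ENSMUSG00000028464.17, chromosome 4, 43514697 to 43524949, minus strand) had 1039, 1024 and 1041 normalized counts in WT and 688, 756 and 764 in GαqKO. The WT libraries lay within a narrow band and every GαqKO library was below it. The mean fell from 1035 ± 9.44 to 736 ± 41.7 (n = 3 per group, SD), and the log2 fold change was -0.49 with a standard error of 0.057 (limma adjusted p = 4.07e-06). The genes tested on chromosome 4 had a median log2 fold change of -0.35, and how far this chromosome-wide value entered the fall of Tpm2 was not tested. On chromosome 9, which holds Tpm1, Tagln and Cnn1, the median was 0.02, and on chromosome 19, which holds Acta2, it was -0.15.

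The other tropomyosin genes were not called by limma. Tpm3 and Tpm4, which in fibroblasts give mainly short cytoplasmic forms, had log2 fold changes of 0.09 and 0.13 (limma adjusted p = 0.149 and 0.0952), and edgeR on all 6 libraries called Tpm4 (adjusted p = 0.0486). Counts of Tpm3 are uncertain, since 79.4% of its exon stretches had another genomic place, against 0% for Tpm1 and Tpm2. Per kilobase of exon, Tpm1 went from 74.6% ± 1.27 of tropomyosin RNA in WT to 58.5% ± 1.25 in GαqKO, while Tpm2 went from 9.83% ± 0.455 to 12.2% ± 0.565 (SD, n = 3 each, exact permutation test, two-sided, p = 0.1 for both, the smallest possible). Tpm2 thus had a lower level and a larger share of the family. The family total includes the uncertain counts of Tpm3. The counts are per gene and do not separate the muscle and cytoplasmic isoforms that Tpm1 and Tpm2 each make by splicing.

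**Figure D3:**
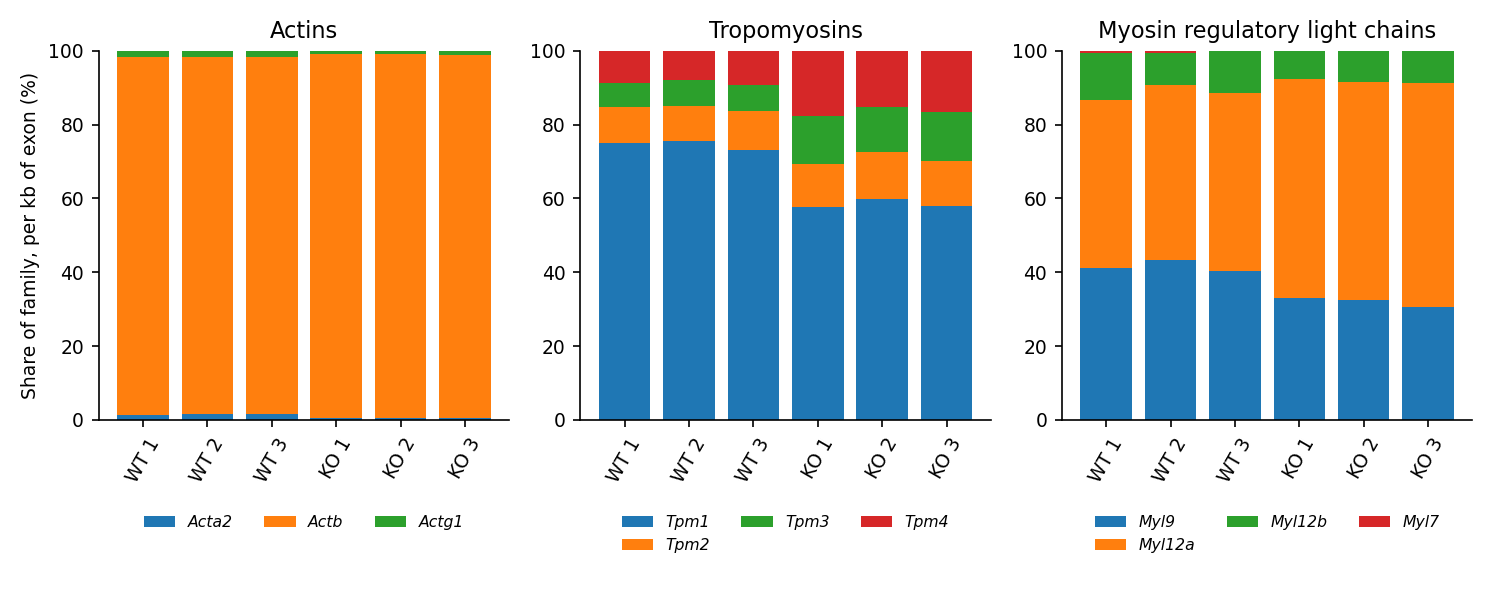
Share of each gene in its family per kilobase of exon, in percent, stacked to 100% for each of the 6 libraries, for actins, tropomyosins and myosin regulatory light chains (genes under 0.05% in every library are not drawn). Tpm1 takes 73.2% to 75.6% of tropomyosin RNA in WT and 57.7% to 59.96% in GαqKO, and Acta2 is the thin base of the actin bars.

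Tagln (ENSMUSG00000032085.6, chromosome 9, 45840909 to 45847404, minus strand) encodes transgelin, also called SM22α, an actin-bundling protein widely used as a marker of SRF activity in smooth muscle and myofibroblasts. It had 49.1, 49.5 and 30.5 normalized counts in WT and 5.63, 9.25 and 5.04 in GαqKO. These were 47, 51 and 30 reads in WT and 6, 8 and 5 reads in GαqKO, so the groups were far apart but rested on few reads. The log2 fold change was -2.53 (standard error 0.338, 95% interval from -3.26 to -1.81, limma adjusted p = 1.60e-05), 5.79-fold lower. Tagln entered the test through its WT level alone. Of its exon bases, 66.7% overlap the exons of genes on the opposite strand (Pcsk7 and Gm48529). The libraries were made with a stranded kit, but the strand setting of the counting is not stated, so reads of Tagln and of these genes may not have been told apart. Pcsk7 had a log2 fold change of -0.26.

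Cnn1 (ENSMUSG00000001349.6, chromosome 9, 22010512 to 22020926, plus strand), the gene of the smooth muscle protein calponin 1, had 5.22, 3.89 and 4.07 normalized counts in WT and 4.70, 1.16 and 4.03 in GαqKO. The groups overlapped and the gene was not tested. As with Tagln, part of its exons (35.1% of the bases) overlaps a gene on the opposite strand, Elof1, so reads of the 2 genes may not have been told apart. The non-muscle relatives were far more abundant and fell by less than Tagln, with log2 fold changes of -0.55 for Cnn2, -0.47 for Cnn3 and -0.37 for Tagln2 (limma adjusted p = 5.80e-07, 1.81e-06 and 4.53e-06). Tagln3, a neuronal relative, was under 10 normalized counts in every library. Tagln made up 0.519% ± 0.112 of calponin and transgelin RNA per kilobase in WT and 0.110% ± 0.0330 in GαqKO (SD, n = 3 each, exact permutation test, two-sided, p = 0.1, the smallest possible).

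Myl9 (ENSMUSG00000067818.7, chromosome 2, 156617084 to 156623579, plus strand) encodes a regulatory light chain of myosin, whose phosphorylation switches on contraction. It had 63.7, 70.9 and 59.0 normalized counts in WT and 50.7, 56.7 and 52.4 in GαqKO. Every GαqKO library was below every WT library, yet the log2 fold change of -0.27 (standard error 0.177, 95% interval from -0.65 to 0.11) did not pass the test (limma adjusted p = 0.196). Without a trend of the prior spread with expression, the same difference passed at a limma adjusted p of 0.0387, the only alternative of 17 that called it. Its close relative Myl12a rose by a log2 fold change of 0.45 (limma adjusted p = 2.93e-04), and Myl12b had -0.29 and was not called (limma adjusted p = 0.213). Myl9 went from 41.6% ± 1.53 to 32.1% ± 1.2 of regulatory light chain RNA per kilobase (SD, n = 3 each, exact permutation test, two-sided, p = 0.1, the smallest possible). The size of this share depends on the exon length used. With all annotated exons merged, as here, it was 2293 bases for Myl9 and 9457 for Myl12a. The Ensembl canonical transcripts, 1 per gene, have 1385 and 3657 bases. The cardiac Myl2 was listed at 0 in all 6 libraries, and the atrial Myl7 reached at most 1.04 normalized counts.

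Ranked by level per kilobase of exon in WT, Tpm1 came first at 1858 ± 103 normalized counts per kilobase (SD, n = 3), followed by Srf at 429 ± 5.81. Tpm2 at 244 ± 2.23, Acta2 at 221 ± 24.7 and Mrtfa at 212 ± 6.44 came next, and the library ranges of neighbours in this group overlapped. Myl9 at 28.2 ± 2.61 and Tagln at 21.1 ± 5.30 stood apart from those above and from each other, and Actg2, Mrtfb and Cnn1, between 1.61 and 2.11, overlapped. In GαqKO the order began with Tpm1 at 834 ± 20.2, Srf at 438 ± 1.13, Mrtfa at 268 ± 11.55, Tpm2 at 174 ± 9.85, Acta2 at 82.5 ± 5.82 and Myl9 at 23.2 ± 1.34, none of which overlapped its neighbour. Tagln at 3.25 ± 1.12 overlapped Actg2, and Mrtfb and Cnn1 followed at 2.06 and 1.2. Acta2 and Tpm2 ranked below Mrtfa in GαqKO, and Tagln, whose libraries overlapped those of Actg2 and Mrtfb, stood above every value of Cnn1. The merged exons of Mrtfa have 6432 bases, beside 4164 in its canonical transcript. For Tpm2 the lengths are 4237 and 3271 bases, and for Acta2 3227 and 2788. The order of Mrtfa, Tpm2 and Acta2 in WT therefore depends on the length used. The aligner used by the study does not split reads across introns, and 28.1% (Actg2) to 80.04% (Srf) of the 150-base stretches of these transcripts lie within an exon, beside a median of 66.6% over 11796 protein-coding genes tested, so ranks between genes are approximate.

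**Figure D4:**
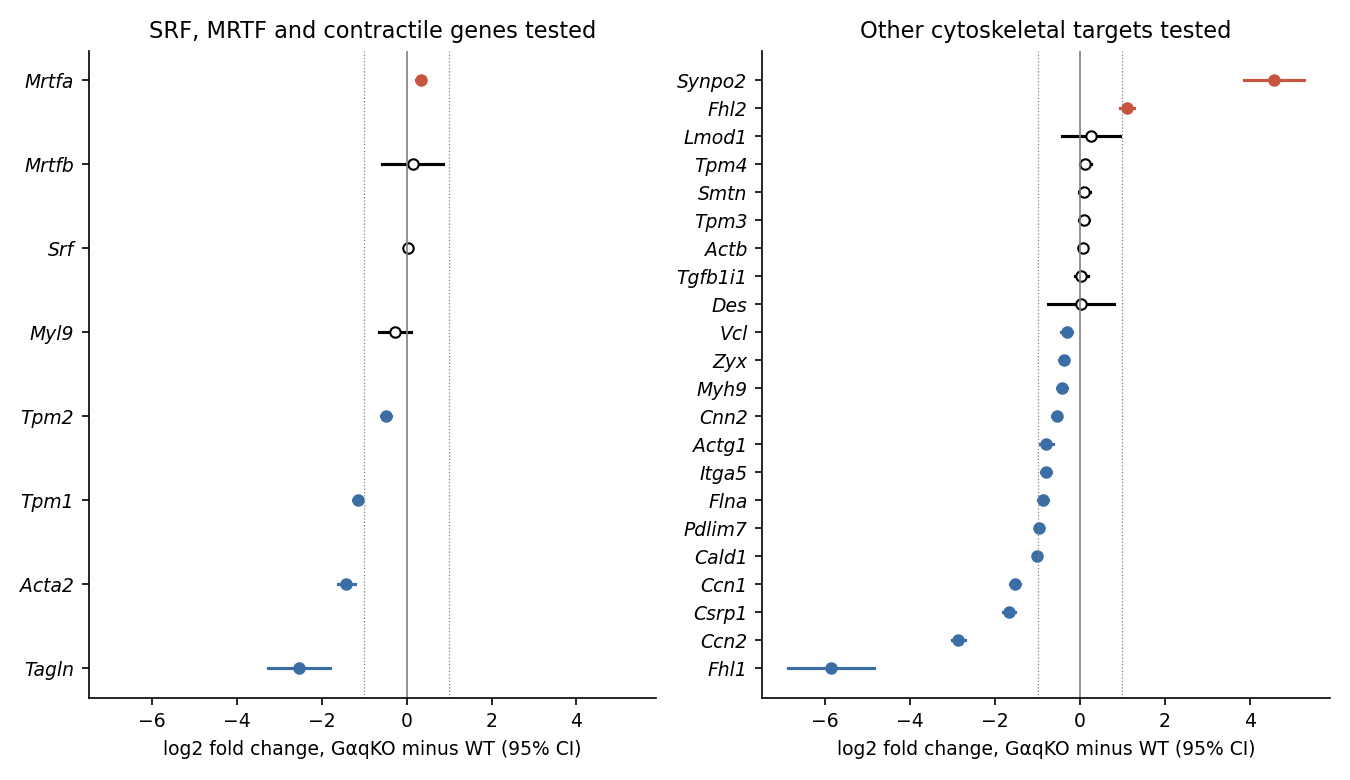
Log2 fold change (GαqKO minus WT) with its 95% interval for the 8 SRF, MRTF and contractile genes tested on the left and for 22 other cytoskeletal targets on the right, with filled points where the limma adjusted p was under 0.05. Tagln, Acta2 and Tpm1 lie left of -1 and Srf lies at 0.03. The values of Fhl1 and Synpo2 depend on the pseudocount because 1 group is low (0 to 2.31 normalized counts for Fhl1 in GαqKO, 3.89 to 13.2 for Synpo2 in WT).

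Other genes known as targets of MRTF and SRF, most of them cytoskeletal, were counted from a list of 26. The list, named other cytoskeletal targets in the figures, also holds the matricellular genes Ccn1 and Ccn2 and the integrin gene Itga5. Of the 26 genes, 22 were tested, 13 were lower and 2 higher, and 5 were lower and 2 higher past the fold threshold as well. Over all genes tested, 34.1% were lower and 31.8% higher, and 10.5% and 10.2% were so past the fold threshold. The median log2 fold change was -0.41, beside -0.01 over all genes tested and -0.38 over the 8 tested genes described above. Of those 8, 3 are regulators and not contractile genes. The matricellular genes Ccn2 (4924 ± 492 to 674 ± 39 normalized counts, log2 fold change -2.86) and Ccn1 (13277 ± 879 to 4582 ± 163, -1.53) fell, as did Csrp1, a LIM protein of smooth muscle (2904 ± 96.5 to 918 ± 89.5, -1.66). Cald1, the gene of caldesmon, which binds tropomyosin and actin, fell with a log2 fold change of -1.02 (SD, n = 3 each, limma adjusted p at most 5.14e-11 for these 4). Fhl1 had 74.1, 92.3 and 92.6 normalized counts in WT and 0, 2.31 and 0 in GαqKO, which is under the floor of 3 counts.

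Not every cytoskeletal target was lower. Fhl2, a LIM protein that binds SRF itself, went up from 687 ± 81.6 to 1478 ± 75.9 normalized counts (n = 3 per group, SD), a rise of 1.11 on the log2 scale (limma adjusted p = 2.40e-08). Synpo2, an actin-binding protein of Z-discs and stress fibres, had 10.4, 3.89 and 13.2 normalized counts in WT and 232, 227 and 201 in GαqKO. Fhl1 met the filter through WT and Synpo2 through GαqKO. Smtn, Lmod1 and Des, which mark differentiated smooth muscle, had log2 fold changes of 0.11, 0.25 and 0.02 and were not called (limma adjusted p = 0.132, 0.501 and 0.970). The remaining smooth muscle marker of the list, Myh11, had 1.38 ± 1.60 and 4.33 ± 3.31 normalized counts, and Filip1l was listed at 0. Among these smooth muscle genes, only Smtn gave a narrow interval to set beside the fall of Acta2 and Tagln.

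The immediate early genes that SRF controls with ELK partners were counted from 6 genes, all tested, of which 1 was higher and 2 lower. The shares over all genes tested were 31.8% higher and 34.1% lower. Egr1 fell from 3127 ± 60.2 to 1373 ± 29.3 normalized counts, a log2 fold change of -1.19, while Egr3 rose from 132 ± 12.7 to 972 ± 27.8, a log2 fold change of 2.87 (SD, n = 3 each, limma adjusted p = 2.68e-11 and 3.76e-12). Fos had 28.2, 43.7 and 28.5 normalized counts in WT and 28.2, 12.7 and 15.1 in GαqKO. Its log2 fold change of -0.86 passed by limma (adjusted p = 0.0333) and by edgeR on all 6 libraries (adjusted p = 0.0352). It did not pass by DESeq2 on all 6 (adjusted p = 0.133), nor by edgeR or DESeq2 on 5 (adjusted p = 0.136 and 0.327). Egr2, at 0.54, missed by limma (adjusted p = 0.0538) and passed by edgeR on 6 and on 5 libraries (adjusted p = 0.0400 and 0.0310). DESeq2 did not call Egr2 on 6 or on 5 libraries (adjusted p = 0.182 and 0.186). The median of this list was 0.15, beside -0.01 over all genes tested.

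**Figure D5:**
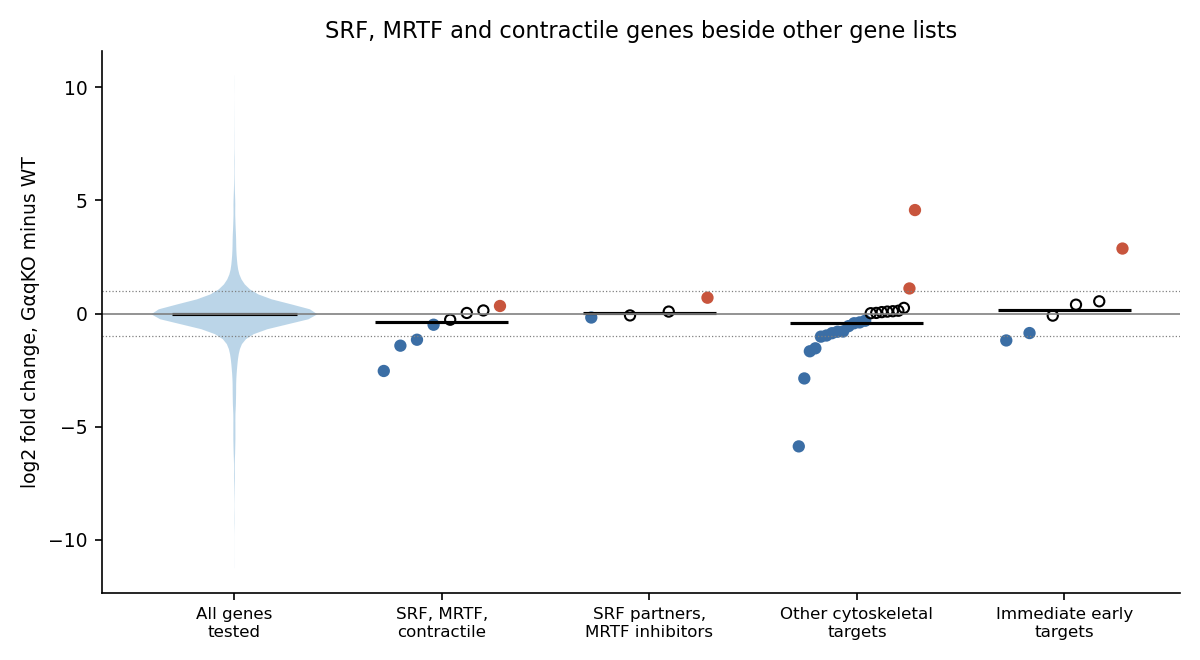
Log2 fold change (GαqKO minus WT) of each tested gene in the 4 lists, beside the spread of all 14096 genes tested, with filled points where the limma adjusted p was under 0.05 and a bar at each median. The medians are -0.38 for the SRF, MRTF and contractile genes and -0.41 for other cytoskeletal targets, against -0.01 over all genes.

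The 3 protein-coding genes whose log2 values followed Acta2 most closely over the 6 libraries were Elac2 (Pearson r = 0.9993), Mcm10 (r = 0.9988) and Sting1 (r = 0.9985). These correlations describe 6 libraries that fall into 2 groups, so they mostly restate the difference between WT and GαqKO. None of the contractile genes was among these 3.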

How the data were processed

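Bulk RNA was measured in 6 MEF libraries, and the genotype in the labels, which give 3 biological replicates each, set the groups WT and GαqKO. The authors selected poly-A RNA, prepared stranded libraries for paired reads of 150 bases, mapped these to GRCm39 with Rbowtie2, summarised them over genes in featureCounts and used DESeq2. Rbowtie2 does not split a read across an intron, and the strand setting of the counting is not given in the sources used here. The deposited signal is a normalized count, that is, a gene's reads divided by 1 size factor per library. Symbols and positions came from GENCODE release 39, which matched 56310 of 56953 identifiers and left 643 unmatched. A gene was tested if 3 or more libraries held 10 or more normalized counts. The test was limma 3.58.1 (R 4.3.3) on log2(normalized count + 1), letting the prior spread follow expression, and p was adjusted over all 14096 genes by Benjamini-Hochberg. The thresholds were an adjusted p under 0.05 and a log2 fold change over 1 or under -1. Fold changes on this scale understate those of low genes.

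In all 6 libraries 100% of the values were whole multiples of 1 step within 0.01, so reads were recovered, and edgeR 4.0.16 and DESeq2 1.42.0 were run on them as alternatives. GαqKO replicate 3, whose step lay nearest to 1, was left out of these fits by choice, and both were repeated on all 6 libraries as alternatives chosen after seeing the data. The depth, 9853000 to 12229175 reads, covers counting error only, and the floor was 3 counts. Replicate pairs differed beyond counting noise, by a chi-square per gene of 2.31 to 5.50. Family shares and levels per kilobase used the length of all annotated exons of a gene merged. Shares were compared by exact permutation tests. Exon stretches of 150 bases were placed on GRCm39 with minimap2, and promoters were read from RefSeq. On simulated data limma recovered 199 of 200 changed genes among 13778, with 7 false calls, 0 of them past the fold threshold. Far fewer genes were changed there than the 65.8% called here, so the simulation does not give the rate of false calls in this contrast. The genes and lists were chosen with earlier results of these data known. Named genes were the 10 genes, their families, the genes past both thresholds or up to 4 with the largest changes in each list, Gnaq and Gna11, and the 3 genes most like Acta2. Ddx3y, the genes that mark cell types and further listed genes were named after their values were seen. A further gene list is not reported here. The alternatives covered the filter, the pseudocount (0.5 and 5), TMM scaling, the prior trend, a replicate block, the count tests and each library left out.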

Additional observations from a re-analysis of the deposited data

How the results depend on the processing

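Over 17 alternatives, of which the count tests on all 6 libraries were added after seeing the data, Mrtfa, Acta2, Tpm1 and Tpm2 were called in the same direction in all 17, and Tagln in all 16 that tested it. Leaving out each library gave log2 fold changes from -1.50 to -1.34 for Acta2, from -2.77 to -2.38 for Tagln, from -1.20 to -1.13 for Tpm1, from -0.52 to -0.44 for Tpm2, from 0.31 to 0.37 for Mrtfa, from 0.02 to 0.04 for Srf, from -0.33 to -0.20 for Myl9 and from -0.13 to 0.45 for Mrtfb, which changed sign but was never called. Myl9 was called only without the prior trend (adjusted p = 0.0387). With a pseudocount of 5 the value of Tagln was -2.04. With at least 10 normalized counts in every library, Tagln was not tested and 3 of the 10 genes were lower, 2 of them past the fold threshold, while over all genes 831 were higher and 765 lower past both thresholds, down from 1432 and 1486, as that filter tests fewer genes. A replicate block left 1 of the 10 genes higher and 4 lower, and 3 lower past both thresholds. To look for pairing, the group mean of each gene was subtracted from its log2 values and the remainders were correlated between WT and GαqKO libraries. Those of same-numbered libraries correlated at -0.0453, -0.148 and -0.0638, and those of differently numbered libraries at -0.0749 to 0.125. The numbers were therefore not taken to pair the libraries, and the block changed no call among the 10 genes. Depth limits Actg2, Cnn1, Mrtfb and Tagln, and overlap with genes on the opposite strand also limits the levels and shares of Cnn1 and Tagln. Without the filter, Actg2 and Cnn1 had log2 fold changes of 0.01 and -0.44 (limma adjusted p = 0.996 and 0.626).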
